A study of Homo sapiens with 12 samples.

Results

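The effect of 6-thio-dG was compared gene by gene between A375 and LOX-IMVI BR, which are both human melanoma lines grown in culture. The quantity of interest was the difference between the lines: the log2 fold change of 6-thio-dG over control in LOX-IMVI BR minus the same log2 fold change in A375. It rests on 8 of the 12 RNA-seq libraries of the series, 2 from each of 4 groups: A375 control, A375 with 6-thio-dG at 5 µM, LOX-IMVI BR control, and LOX-IMVI BR with 6-thio-dG at 5 µM. The other 4 libraries, from both lines treated with BIBR1532, a telomerase inhibitor, entered the fit for its estimate of spread and are not described. The labels describe both lines as metastatic melanoma cells grown in 6-well plates. The meaning of BR, the vehicle of the controls and the length of exposure are not given in the sources used here. Each line is a single cell line, so a difference between them is a difference between these lines and cannot be told apart from any other property in which they differ.

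6-thio-dG is the deoxyguanosine analogue 6-thio-2'-deoxyguanosine, which telomerase can build into telomeric DNA and which is related to the thiopurine drugs. Telomerase is the reverse transcriptase that extends chromosome ends, and most tumours, melanoma among them, express it. Cells that meet damaged DNA or damaged telomeres are known to halt the cell cycle, often through the transcription factor p53 and its target CDKN1A, and to lower the genes of cell division. Melanoma lines are also known to range from a melanocyte-like state, driven by MITF and SOX10, to a dedifferentiated state with high AXL and matrix genes.

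The deposited table held whole-number read counts for 75253 genes, with 11813388 to 25822381 counts per library. Of these, 29114 genes passed the filter on low counts and were tested, 14439 with a gene symbol and 14675 non-coding loci named only by a database number. Values below are CPM, read counts scaled to a common library size with TMM factors, given in the order replicate 1 and replicate 2, and tests are edgeR's quasi-likelihood test with Benjamini-Hochberg adjustment over all 29114 genes. A gene is said to have changed, risen or fallen where its adjusted p was below 0.05. The series calls the 2 libraries of a group biological replicates, but the pairs differed in their closeness. Over genes at 5 CPM or more, the median distance between the 2 libraries of a pair was 0.575 log2 units in the A375 controls and 0.680 in treated A375. In LOX-IMVI BR it was 0.0555 and 0.0602, and a chi-square per gene had a median of 0.614 and 0.772, close to the 0.455 that counting error alone gives. The p-values therefore measure the spread between these libraries, and 1 spread is shared by both lines.

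The check of the cell type gave a mixed picture. SOX10, a transcription factor of the melanocyte lineage, read 512 and 590.4 CPM in the A375 controls and 0.502 and 0.683 CPM in the LOX-IMVI BR controls. MITF, the master regulator of melanocytes, read 45.6 and 34.5 CPM in A375 and 7.23 and 7.83 CPM in LOX-IMVI BR. The pigment gene PMEL was below 1 CPM in both control groups, and TYR and DCT did not pass the filter. Of 12 fibroblast marker genes 11 were tested, and their summed level was 19.0 to 21.2 CPM in the A375 controls against 1934 to 1970.1 CPM in the LOX-IMVI BR controls. Most of that sum was COL1A1, at 1640.4 and 1618 CPM, and COL3A1, at 154 and 148 CPM, while COL1A2, DCN and LUM were below 4 CPM. Other marker sums were higher in A375. For 5 tested epithelial markers the sum was 304 to 498 CPM in A375 controls and 40.4 to 43.8 CPM in LOX-IMVI BR controls. For 11 tested keratinocyte markers it was 215 to 345 CPM and 69.1 to 81.1 CPM.

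The 6-thio-dG effect differed between the lines for 1612 of the 29114 genes, or 5.54% of those tested. For all 1612, the 4 ratios of treated to control libraries in one line lay entirely above the 4 in the other. Among symbol-named genes, 447 (3.10%) had a higher effect in LOX-IMVI BR and 600 (4.16%) a lower one. Of these 1047 genes, 388 changed in A375 alone, 440 in LOX-IMVI BR alone, 141 in opposite directions, 35 in the same direction to different extents, and 43 passed in neither line by itself. Changing in 1 line alone is a statement about thresholds, but here the difference itself also passed its test. In 64 of the 1047 both A375 groups were below 1 CPM, and in 116 both LOX-IMVI BR groups were, so that part of the list contrasts a line that has the transcript with one that hardly does.

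Shared changes were more numerous than opposite ones. Within A375, 1127 symbol-named genes rose (7.81% of those tested) and 1866 fell (12.9%). Within LOX-IMVI BR, 897 rose (6.21%) and 1554 fell (10.8%). Both lines raised 270 of them (1.87%), which is 24.0% of the A375 rises and 30.1% of the LOX-IMVI BR rises. Both lowered 417 (2.89%), which is 22.3% and 26.8%. A further 56 (0.388%) fell in A375 and rose in LOX-IMVI BR, and 85 (0.589%) rose in A375 and fell in LOX-IMVI BR. Across the 14439 symbol-named genes the log2 fold changes of the lines had a Pearson r of 0.290 and a Spearman rho of 0.259, as a description, since genes are not independent replicates and each line's ratios share their libraries. Shared does not mean equal: of the 270 shared rises 7 and of the 417 shared falls 28 also differed in size, and in only 8 and 49 did the 95% interval of the difference lie within 1 log2 unit either way.

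**Figure D1:**
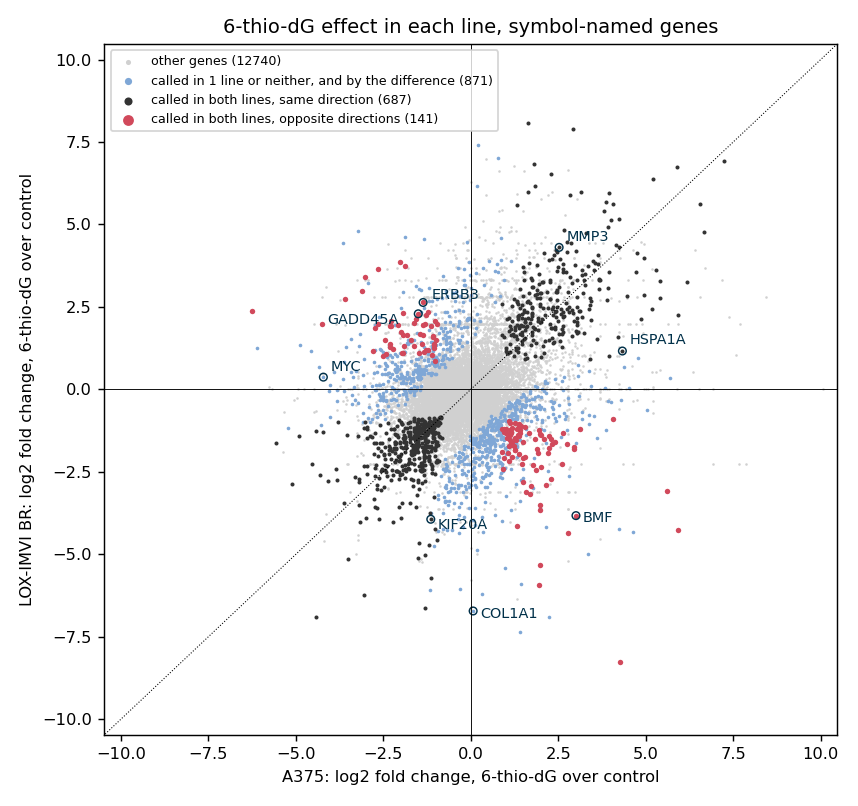
Log2 fold change of 6-thio-dG over control in A375 (horizontal) against LOX-IMVI BR (vertical) for 14439 symbol-named genes, 1 point per gene, coloured by which tests it passed; the dotted line marks equal effects. The 687 genes called in both lines in 1 direction lie in 2 opposite quadrants, the 141 called in opposite directions in the other 2, and MYC and COL1A1 lie close to an axis.

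The number of calls depended strongly on which libraries set the spread. With only the 8 control and 6-thio-dG libraries in the fit, 362 of the 1612 differences passed. Leaving out any 1 LOX-IMVI BR library gave 475 to 482, and leaving out any 1 A375 library gave 2242 to 6808, the most without the second library of treated A375. Every one of the 1612 kept its direction in all of these fits in which it was tested. Many counts for gene lists below are therefore followed by the count with 8 libraries, and some also by the range over leaving out each library. A count given without these is not thereby a stable one. For the counts of differing genes in the lists so described, the lowest came without a LOX-IMVI BR library and the highest without an A375 library. Genes described singly passed the test of the difference in the 8-library fit too, unless the text says otherwise. Calls within 1 line were less stable. Of 192 genes picked by the rule for naming genes, 111 were called within A375 and 109 within LOX-IMVI BR. With 8 libraries 32 and 20 of these calls were lost, and leaving out some 1 library lost 25 and 44. Limma voom with group weights, which gives each group its own spread, lost 76 and 0. A call within a line that was lost with 8 libraries is given with its adjusted p in that fit where the gene is described by its change. Directions within a line also depend on scaling: with upper-quartile factors the median log2 fold change of all genes was 0.43 in A375 and 0.28 in LOX-IMVI BR, against 0.03 and 0.05 with TMM.

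Genes of mitosis fell in both lines, with the largest share falling in both of any list examined. Of 44 tested, 35 fell in A375 (79.5%, beside 12.9% of symbol-named genes) and 43 in LOX-IMVI BR (97.7%, beside 10.8%). Both lines lowered 35, and none rose in either line. The medians were -1.77 and -2.36 on the log2 scale, against -0.25 and -0.13 for all symbol-named genes. The summed level of the list went from 2026 to 2679 CPM down to 761 to 839 CPM in A375, and from 6178 to 6275 CPM down to 1062 to 1186 CPM in LOX-IMVI BR. The libraries of control and treated cells did not overlap in either line. The count in both lines was 22 with the 8 libraries, 22 to 37 with 1 library left out (lowest without the second A375 control) and 9 with limma voom and group weights.

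TOP2A, the topoisomerase that untangles chromosomes before division, read 90.3 and 201 CPM in the A375 controls and 4.01 and 27.4 CPM with 6-thio-dG. In LOX-IMVI BR it read 805 and 773 CPM and then 66.2 and 71.4 CPM. Log2 fold changes were -3.21 (SE 0.63, adjusted p = 0.00414) and -3.52 (SE 0.63, adjusted p = 0.00194), and the difference of -0.31 (95% interval -2.05 to 1.43, adjusted p = 0.893) was well inside its error. HMMR, a spindle-associated protein, fell by a similar factor, with a difference of 0.17 (95% interval -1.60 to 1.95, adjusted p = 0.964). DEPDC1, a gene of dividing cells that the list does not hold, read 8.56 and 11.6 CPM in A375 controls against 0.418 and 1.68 CPM, and 36.9 and 36.5 CPM in LOX-IMVI BR controls against 4.81 and 6.38 CPM. Its difference was 0.49 (95% interval -0.76 to 1.74, adjusted p = 0.703). The intervals of all 3 genes are wide, so equal effects are not shown, only that no difference was detectable with these libraries.

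A few mitotic genes fell further in LOX-IMVI BR. KIF20A, a kinesin of the central spindle, read 28.7 and 36.3 CPM in A375 controls and 13.4 and 15.9 CPM with 6-thio-dG, a log2 fold change of -1.14 (SE 0.28, adjusted p = 0.0136) that had an adjusted p of 0.0505 with 8 libraries. Its level in LOX-IMVI BR went from 208 and 206 CPM to 12.3 and 14.7 CPM, a log2 fold change of -3.94 (SE 0.31, adjusted p = 4.61e-06). The treated libraries of the lines thus ended close together, and the difference was -2.79 (SE 0.40, adjusted p = 0.00108). PLK1, CCNB1 and PTTG1, which regulate entry into or progress through mitosis, also had lower effects in LOX-IMVI BR, at -1.90, -1.73 and -1.71. With the 8 libraries these 3 no longer passed (adjusted p = 0.0995, 0.166 and 0.189). In all, 5 of the 44 (11.4%, beside 4.16% of symbol-named genes) had a lower effect in LOX-IMVI BR and none a higher one (1 with 8 libraries; 1 to 13 with 1 library left out). Without the second library of treated A375 the picture for this list was different: 13 had a higher and 13 a lower effect, and the median difference was 0.22 instead of -0.59.

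The promoter of a shared fall is shown because a cell cycle motif is common in the promoters of mitotic genes. RefSeq promoters (GRCh38.p14, 250 bases before to 50 after the annotated start) were matched for 38 of the 44 genes, and 68.4% of those held the cell cycle homology region TTTGAA on either strand. The same letters were in 15.2% of all 35116 promoters and in 10.1% of the 11693 matched promoters of tested genes. They were in 23.3% of the 348 matched promoters of all shared falls and in 12.3% of the 203 of shared rises. These shares are a description; a match is not a binding site, and base composition differs between the sets. The 250 bases before the start of DEPDC1 (chr1:68497083-68497332, minus strand, GRCh38.p14) are printed 5′ to 3′ with the match, here as its reverse complement, in capitals 27 bases before the start.
DEPDC1: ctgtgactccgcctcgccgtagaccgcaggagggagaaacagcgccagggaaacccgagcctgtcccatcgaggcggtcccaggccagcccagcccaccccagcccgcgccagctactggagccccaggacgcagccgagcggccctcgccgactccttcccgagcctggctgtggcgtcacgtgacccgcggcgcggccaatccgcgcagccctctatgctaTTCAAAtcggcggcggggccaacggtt

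DNA replication genes fell less widely, at 22% of those tested in A375 (beside 12.9% of symbol-named genes) and 40% in LOX-IMVI BR (beside 10.8%). Of 50 tested, 11 fell and 1 rose in A375, 20 fell and 1 rose in LOX-IMVI BR, and 7 fell in both (1 with 8 libraries; 1 to 14 with 1 library left out). The effect was lower in LOX-IMVI BR for 5 (10%, beside 4.16% of symbol-named genes) and higher for none, and none of the 5 passed with 8 libraries. RRM2, a subunit of ribonucleotide reductase, which makes deoxynucleotides, read 78.5 and 45.9 CPM in A375 controls and 90.0 and 93.7 CPM with 6-thio-dG. The LOX-IMVI BR level went from 303 and 284 CPM to 87 and 92.9 CPM, and the difference was -2.27 (SE 0.41, adjusted p = 0.00556), with adjusted p = 0.0776 in the 8-library fit. The LOX-IMVI BR controls stood far above all other libraries, and in A375 the treated libraries were the higher ones.

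Chaperones of the endoplasmic reticulum fold secreted proteins, and some of them fell in both lines. Of 25 tested, 13 fell in A375 (52%, beside 12.9% of symbol-named genes), 11 in LOX-IMVI BR (44%, beside 10.8%) and 7 in both, with none rising in either line. HSPA5, the main chaperone of that compartment, read 3047 and 3545 CPM in A375 controls and 902 and 930.0 CPM with 6-thio-dG, and 2267 and 2169.8 CPM and 387 and 405 CPM in LOX-IMVI BR. The log2 fold changes were -1.85 (SE 0.25, adjusted p = 0.000423) and -2.49 (SE 0.26, adjusted p = 3.2e-05), with a difference of -0.64 (95% interval -1.38 to 0.10, adjusted p = 0.333). HYOU1, its partner, had -2.27 and -2.10. CALR and PDIA3, which act on glycoproteins, had a lower effect in LOX-IMVI BR, at -2.39 and -1.37. They were the only 2 such members (8%, beside 4.16% of symbol-named genes), and neither passed with 8 libraries (adjusted p = 0.0838 and 0.188).

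Several strong shared falls were genes of the matrix and of signalling outside the cell. IL11, a cytokine of the interleukin-6 family, read 787 and 957 CPM in A375 controls and 68.3 and 34.7 CPM with 6-thio-dG, and 26.8 and 28.5 CPM and 4.29 and 3.76 CPM in LOX-IMVI BR. Its level in the A375 controls was far above that in LOX-IMVI BR, yet both lines lost most of it, with log2 fold changes of -4.08 (SE 0.36, adjusted p = 2.18e-05) and -2.78 (SE 0.34, adjusted p = 0.000127). TGM2, a protein-crosslinking enzyme, behaved alike at -3.19 (SE 0.33, adjusted p = 7.44e-05) and -2.80 (SE 0.33, adjusted p = 0.000101), with a difference of 0.39 (95% interval -0.56 to 1.33, adjusted p = 0.689). LOXL2, which crosslinks collagen, fell from 86.3 and 193 CPM to 17.7 and 13.6 CPM in A375 and from 687 and 654 CPM to 40.1 and 41.7 CPM in LOX-IMVI BR. COL12A1, a collagen of fibril surfaces, had -2.77 (SE 0.48, adjusted p = 0.00196) and -3.34 (SE 0.49, adjusted p = 0.000446), and TMEM158, a membrane protein induced by Ras signalling, had -2.75 (SE 0.32, adjusted p = 0.000124) and -3.57 (SE 0.32, adjusted p = 1.06e-05). None of these 5 had a difference that passed.

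CA9, a carbonic anhydrase and a classic hypoxia gene, was nearly lost in both lines. It read 14 and 31.1 CPM in A375 controls against 1.67 and 0.47 CPM with 6-thio-dG, and 18.8 and 17.9 CPM against 0.16 and 0.138 CPM in LOX-IMVI BR. The difference of -2.47 (95% interval -4.42 to -0.51, adjusted p = 0.14) did not pass. COL6A3, a chain of collagen VI, fell in both lines and to a greater extent in LOX-IMVI BR, at -3.05 (SE 0.34, adjusted p = 0.000107) and -6.23 (SE 0.40, adjusted p = 1.29e-06), with a difference of -3.18 (SE 0.48, adjusted p = 0.00147). It is the only one of the 10 largest shared falls whose difference passed. With limma voom and group weights 4 of these 10 A375 falls were lost, those of CA9, HMMR, COL12A1 and DEPDC1. None of the 10 LOX-IMVI BR falls was lost in that fit.

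CDKN1A rose in both lines in the fit of 12 libraries. CDKN1A, the cell cycle inhibitor p21, read 179 and 350.0 CPM in A375 controls and 946 and 573 CPM with 6-thio-dG. In LOX-IMVI BR it went from 54.6 and 51.3 CPM to 276 and 268 CPM. Log2 fold changes were 1.52 (SE 0.34, adjusted p = 0.00829) and 2.36 (SE 0.35, adjusted p = 0.000496), with a difference of 0.84 (95% interval -0.17 to 1.85, adjusted p = 0.358). With 8 libraries the A375 rise did not pass (adjusted p = 0.0593), nor did it with each line fitted alone. PTAFR, the receptor for platelet-activating factor, rose in both lines to nearly the same degree, at 3.53 (SE 0.32, adjusted p = 2.59e-05) and 3.61 (SE 0.35, adjusted p = 1.86e-05). The difference was 0.08 (95% interval -0.81 to 0.98, adjusted p = 0.966), so a gap of 1 log2 unit or more lies outside the interval. MYH7B, a myosin heavy chain, read 3.93 and 1.81 CPM and 23.3 and 21.4 CPM in A375 and 1.86 and 2.64 CPM and 20.3 and 21.9 CPM in LOX-IMVI BR. All 4 treated libraries sat between 20.3 and 23.3 CPM, although the interval of the difference is still -0.73 to 1.37.

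MMP3, a secreted matrix protease, read 0.673 and 1.36 CPM in A375 controls and 4.43 and 6.45 CPM with 6-thio-dG, and 2.71 and 2.41 CPM and 49.7 and 51.8 CPM in LOX-IMVI BR. Its log2 fold changes were 2.52 (SE 0.45, adjusted p = 0.00223) and 4.30 (SE 0.42, adjusted p = 1.98e-05), and the difference of 1.78 (95% interval 0.50 to 3.06, adjusted p = 0.101) did not pass although its interval leaves out 0. The adhesion molecule nectin-4, listed as PVRL4, rose at 2.75 (SE 0.39, adjusted p = 0.000503) and 4.17 (SE 0.48, adjusted p = 7.74e-05). GRIN2C, an NMDA receptor subunit, rose at 2.36 (SE 0.39, adjusted p = 0.00139) and 2.49 (SE 0.38, adjusted p = 0.00058), and CCDC17, a coiled-coil gene, at 2.46 (SE 0.33, adjusted p = 0.000385) and 3.02 (SE 0.32, adjusted p = 3.38e-05). The remaining 4 of the 10 largest shared rises were CDHR5, GUCA1B, VWCE and SLC25A34, with log2 fold changes of 2.22 to 2.65 in A375 and 2.46 to 4.18 in LOX-IMVI BR. No difference among the 10 passed. With limma voom and group weights 7 of the 10 A375 rises were lost, those of MMP3, GRIN2C, CCDC17, CDHR5, GUCA1B, VWCE and SLC25A34. None of the 10 LOX-IMVI BR rises was lost in that fit.

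**Figure D2:**
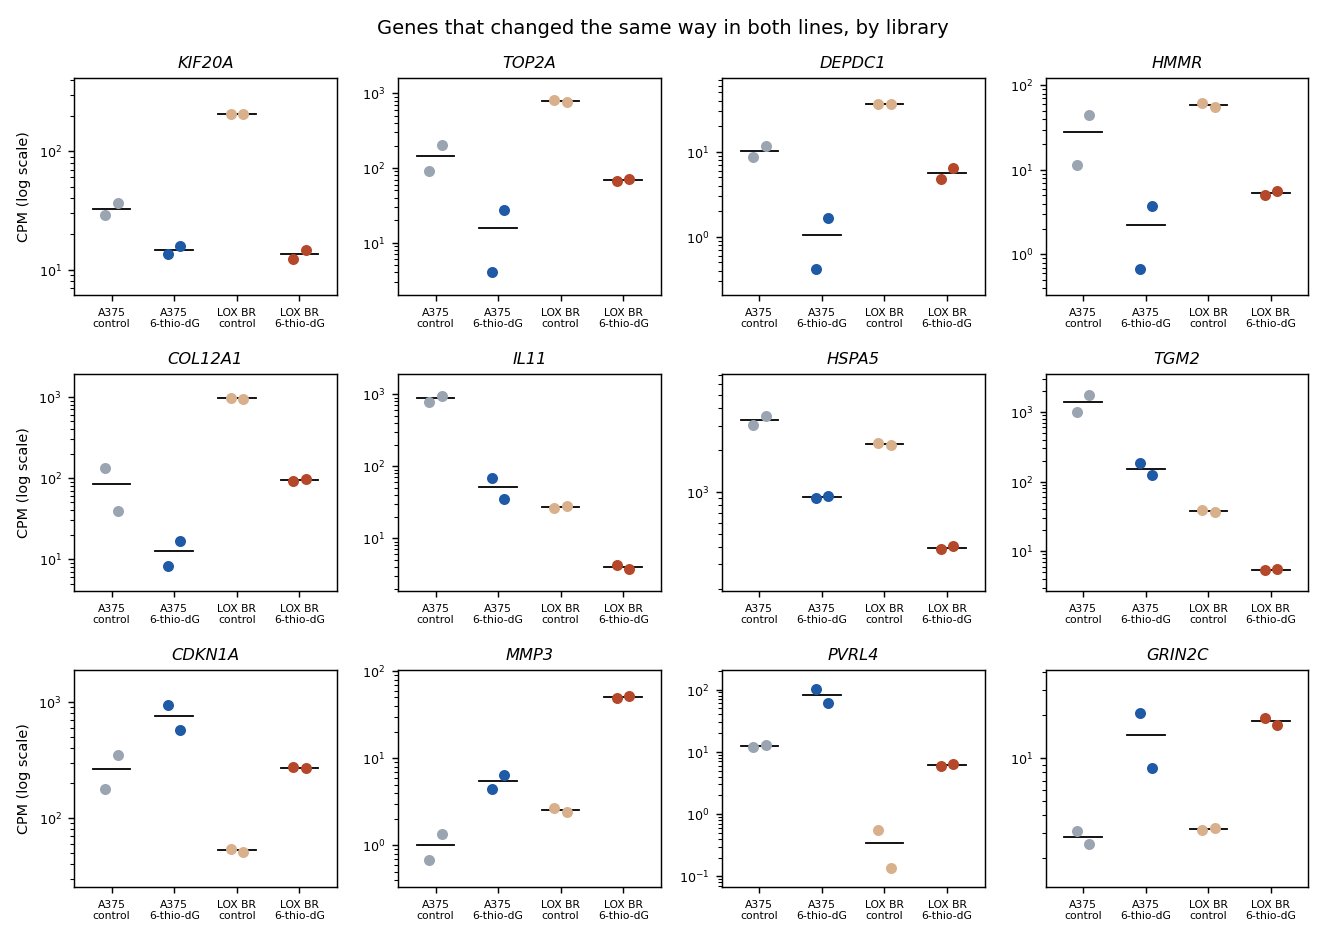
CPM (log scale) in each library for 12 genes that changed in the same direction in both lines; each point is a library, bars are means of 2, and grey, blue, tan and brown mark A375 control, A375 with 6-thio-dG, LOX-IMVI BR control and LOX-IMVI BR with 6-thio-dG. The first 8 panels fall in both lines and the last 4 rise; KIF20A is the one of the 12 whose difference between lines passed the test.

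Targets of p53 rose mainly in LOX-IMVI BR. Of 35 tested, 19 rose in LOX-IMVI BR (54.3%, beside 6.21% of symbol-named genes) and none fell. A375 had 6 rises (17.1%, beside 7.81%) and 4 falls (11.4%, beside 12.9%), and 4 rose in both lines. The median log2 fold change was 1.25 in LOX-IMVI BR and 0.13 in A375, where it was -0.03 with 8 libraries. The effect was higher in LOX-IMVI BR for 7 (20%, beside 3.10% of symbol-named genes) and lower for none (2 with 8 libraries; 3 to 17 with 1 library left out). The LOX-IMVI BR rises numbered 14 with 8 libraries and 6 to 24 with 1 library left out. MDM2, the p53 inhibitor that p53 itself induces, read 130.3 and 61.3 CPM in A375 controls and 95 and 286 CPM with 6-thio-dG, with overlap between the groups. Its level in LOX-IMVI BR went from 104 and 108 CPM to 483 and 474 CPM, a log2 fold change of 2.17 (SE 0.46, adjusted p = 0.0048), and the difference of 1.18 (95% interval -0.14 to 2.50, adjusted p = 0.314) did not pass.

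GADD45A and SESN2 were the 2 p53 targets called in opposite directions with 12 libraries. GADD45A, a growth arrest gene, read 551 and 745 CPM in A375 controls and 251 and 207 CPM with 6-thio-dG, a log2 fold change of -1.50 (SE 0.29, adjusted p = 0.00353). The LOX-IMVI BR level went from 43.5 and 40.1 CPM to 205 and 205 CPM, a log2 fold change of 2.29 (SE 0.30, adjusted p = 0.000186). The difference was 3.79 (SE 0.41, adjusted p = 0.000143), and the treated libraries of both lines lay between 205 and 251 CPM. The A375 fall of GADD45A was lost with limma voom and with each line fitted alone. SESN2, a stress-induced inhibitor of mTORC1, had -1.08 (SE 0.30, adjusted p = 0.0253) and 1.60 (SE 0.31, adjusted p = 0.00287), with a difference of 2.68 (SE 0.43, adjusted p = 0.00235). Its A375 fall was lost with 8 libraries (adjusted p = 0.0544), limma voom, upper-quartile factors, the replicate block and each line fitted alone, and without the second A375 control. SESN2 is also a target of the amino acid stress factor ATF4. PMAIP1, which encodes the pro-apoptotic protein NOXA, fell in A375 at -2.31 (SE 0.46, adjusted p = 0.00445) and had 1.28 (SE 0.45, adjusted p = 0.0638) in LOX-IMVI BR; its difference of 3.59 had an adjusted p of 0.0667 with 8 libraries.

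Targets of ATF4 fell in A375 and not as a group in LOX-IMVI BR. ATF4 is the transcription factor of the integrated stress response, which raises amino acid transport and synthesis when translation is slowed. Of 32 tested, 21 fell in A375 (65.6%, beside 12.9% of symbol-named genes) and none rose. LOX-IMVI BR had 8 rises (25%, beside 6.21%) and 3 falls (9.38%, beside 10.8%). The effect was higher in LOX-IMVI BR for 14 and lower for 2, which is 43.8% and 6.25%, beside 3.10% and 4.16% of all symbol-named genes (6 and 1 with 8 libraries; the 14 ranged from 7 to 21 with 1 library left out). Of the 32, 5 fell in A375 and rose in LOX-IMVI BR. The medians were -1.21 and 0.18, and the median difference stayed between 1.24 and 1.90 with 1 library left out. The summed level was 15846 to 26687 CPM in A375 controls and 7869 to 11120.2 CPM after 6-thio-dG, against 4637 to 4692 CPM and 6651 to 6808 CPM in LOX-IMVI BR.

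PPP1R15A, the phosphatase subunit GADD34 that ends the integrated stress response, read 2134 and 3962 CPM in A375 controls and 928 and 655 CPM with 6-thio-dG. In LOX-IMVI BR it went from 323 and 326 CPM to 972 and 1051 CPM. The log2 fold changes were -1.95 (SE 0.33, adjusted p = 0.00163) and 1.64 (SE 0.33, adjusted p = 0.00352), with a difference of 3.59 (SE 0.46, adjusted p = 0.00054). STC2, a secreted glycoprotein, read 176 and 175 CPM and 34.7 and 29.1 CPM in A375 against 55.6 and 53 CPM and 152 and 155 CPM in LOX-IMVI BR, a difference of 3.96 (SE 0.39, adjusted p = 8.02e-05). SLC3A2, the heavy chain of amino acid transporters, read 1382 and 2909 CPM in A375 controls and 1517 and 1151 CPM with 6-thio-dG, which overlapped. Its level in LOX-IMVI BR rose from 192 and 188 CPM to 1353 and 1323 CPM, and the difference was 3.50 (SE 0.47, adjusted p = 0.000683). DDIT4, an mTORC1 inhibitor that also responds to hypoxia, fell in both lines and further in LOX-IMVI BR, with -1.30 (SE 0.33, adjusted p = 0.0162) in A375, -5.03 (SE 0.39, adjusted p = 3.81e-06) in LOX-IMVI BR and a difference of -3.74 (SE 0.48, adjusted p = 0.000529). MTHFD2, a mitochondrial folate enzyme, had a difference of 1.89 that did not pass with 8 libraries (adjusted p = 0.108).

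GDF15, a secreted stress factor induced by both p53 and ATF4, followed the same order. It read 687 and 1506 CPM in A375 controls and 832 and 504 CPM with 6-thio-dG, overlapping groups with a log2 fold change of -0.71 (SE 0.35, adjusted p = 0.171). The LOX-IMVI BR level rose from 44.3 and 43 CPM to 355 and 338 CPM, at 2.99 (SE 0.38, adjusted p = 0.000158), and the difference was 3.70 (SE 0.51, adjusted p = 0.000916). Aminoacyl-tRNA synthetases, many of which are ATF4 targets, fell in A375 for 12 of 20 tested (60%, beside 12.9% of symbol-named genes). That count was 7 with 8 libraries. None passed in LOX-IMVI BR, where limma voom with group weights called 15 lower. Only 1 of the 20 (5%, beside 3.10%), FARSB, had a higher effect in LOX-IMVI BR, and it was lost with 8 libraries (adjusted p = 0.139).

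Genes with opposite changes were chosen among those at 5 CPM or more in the higher group of each line and ranked by the smaller of their 2 log2 fold changes. Among the first 8 that were lower in A375 and higher in LOX-IMVI BR, FST, the activin-binding protein follistatin, read 405 and 335 CPM in A375 controls and 83.9 and 68 CPM with 6-thio-dG. In LOX-IMVI BR it read 2.26 and 2.23 CPM and 9.94 and 8.9 CPM. Its difference was 4.35 (SE 0.41, adjusted p = 5.97e-05). IL24, a cytokine of the interleukin-10 family, read 1731 and 3072 CPM and 819.5 and 726 CPM in A375 but only 8.59 and 9.83 CPM and 37.9 and 36.6 CPM in LOX-IMVI BR, so the opposite movement left the lines far apart. DDR2, a collagen receptor kinase, had -1.82 (SE 0.33, adjusted p = 0.00223) in A375 and 1.66 (SE 0.34, adjusted p = 0.00447) in LOX-IMVI BR. SERPINB7, an intracellular protease inhibitor, read 54.7 and 70.9 CPM and 9.77 and 22.8 CPM in A375 and 8.89 and 7.42 CPM and 40.2 and 41.6 CPM in LOX-IMVI BR. LURAP1L and SH2D5, with differences of 4.60 and 4.21, complete the 8 together with GADD45A and PPP1R15A.

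The AP-1 motif TGANTCA, bound by FOS and JUN proteins, was present on either strand in 27.8% of the 36 matched promoters of the 56 genes that fell in A375 and rose in LOX-IMVI BR. It was in 6.45% of the 62 matched promoters of the genes with the reverse pattern, in 5.29% of those of tested genes and in 7.71% of all promoters. The set is small, 10 promoters with the motif, and no test was made. Of 9 motifs searched, this one, the cell cycle motif and the heat shock motif are described, chosen after their shares were seen. FST is shown (chr5:53480379-53480628, plus strand, GRCh38.p14, the 250 bases before the start) with the match in capitals 160 bases before the start.
FST: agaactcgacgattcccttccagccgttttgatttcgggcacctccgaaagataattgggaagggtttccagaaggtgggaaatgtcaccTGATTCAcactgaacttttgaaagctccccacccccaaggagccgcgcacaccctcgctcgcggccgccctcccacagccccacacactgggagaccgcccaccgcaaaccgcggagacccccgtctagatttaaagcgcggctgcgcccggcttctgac

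BMF came first by the same rule among genes higher in A375 and lower in LOX-IMVI BR. BMF, a pro-apoptotic member of the BCL2 family, read 2.62 and 3.08 CPM in A375 controls and 27.9 and 17.6 CPM with 6-thio-dG. Its level in LOX-IMVI BR went from 11 and 9.65 CPM to 0.682 and 0.759 CPM. With log2 fold changes of 3.01 (SE 0.33, adjusted p = 9.14e-05) and -3.83 (SE 0.35, adjusted p = 1.41e-05), the difference was -6.83 (SE 0.48, adjusted p = 6.98e-06), and the line with the higher level was LOX-IMVI BR among controls and A375 among treated cells. CD82, a tetraspanin known as a metastasis suppressor, read 3.1 and 8.33 CPM and 27.6 and 16.1 CPM in A375 against 88.4 and 83.4 CPM and 6.94 and 6.62 CPM in LOX-IMVI BR. COL17A1, a hemidesmosome collagen, read 4 and 3.17 CPM and 32.1 and 23.5 CPM in A375 against 8.54 and 7.74 CPM and 2.57 and 2.1 CPM. For this gene, as for BMF, the treated A375 libraries were the highest of all 4 groups.

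CEBPD, a transcription factor of inflammation, fell in LOX-IMVI BR from 90.5 and 91.1 CPM to 10.7 and 10.3 CPM and rose in A375 from 2.77 and 5.7 CPM to 15.7 and 9 CPM. ANGPTL4, a secreted lipase inhibitor and hypoxia target, had 1.71 (SE 0.36, adjusted p = 0.00571) in A375 and -2.93 (SE 0.36, adjusted p = 0.000111) in LOX-IMVI BR. The potassium channel KCND1 and the liprin PPFIA4 moved in the same way, with differences of -4.00 and -4.08. The A375 rises of CD82 and CEBPD did not pass with 8 libraries (adjusted p = 0.0507 and 0.0734). Genes below 5 CPM throughout 1 line are outside this ranking, and some of them had larger fitted differences, such as ANKRD1, CDH4 and C1orf116 in the first direction and LRRC15, PTGES and OLFML3 in the second. Still larger ones were fitted for P2RY6, a nucleotide receptor, at -12.52, and for C11orf86 at -10.21, but each was near 0 in 2 of the 4 groups. P2RY6 read 54.1 and 52.7 CPM in LOX-IMVI BR controls against 0.241 and 0.103 CPM with 6-thio-dG, and 0.0374 and 0.0905 CPM and 1.59 and 0.739 CPM in A375.

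**Figure D3:**
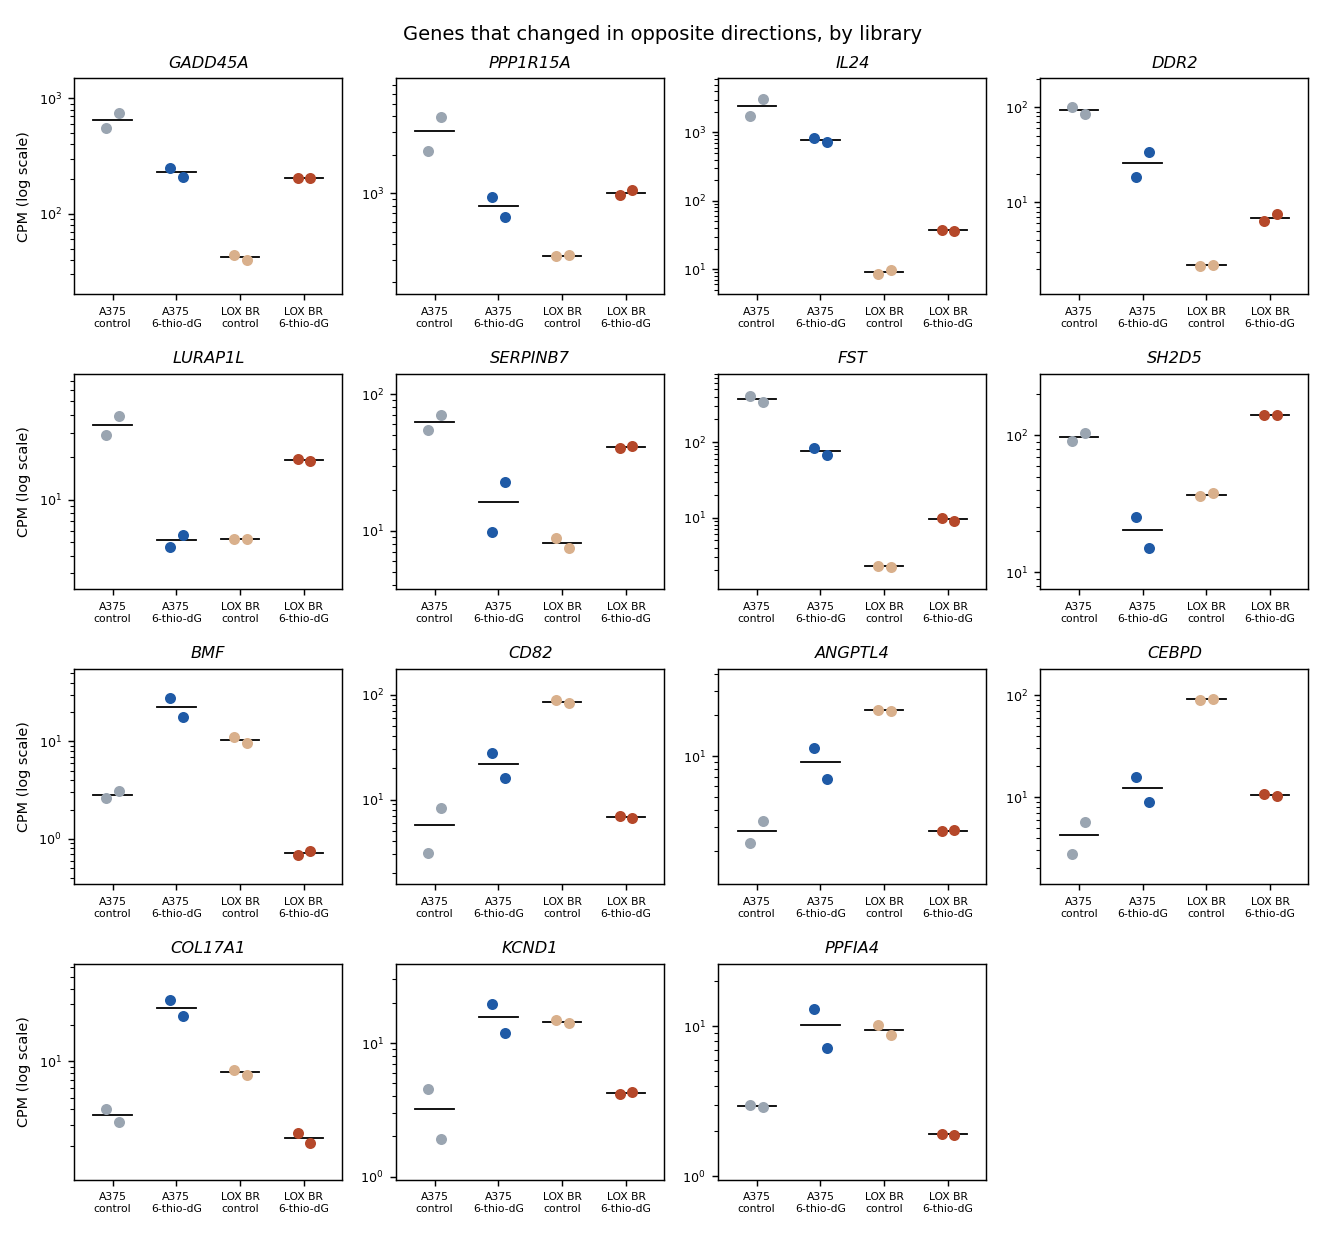
CPM (log scale) in each library for 15 of the genes with opposite changes that rank first by the smaller of their 2 changes among those at 5 CPM or more in each line, in the colours of the plot of shared genes; points are libraries and bars means of 2. In the upper 8 panels A375 falls and LOX-IMVI BR rises, in the lower 7 the reverse, and in neither line do treated and control libraries overlap.

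Levels of the lines were closer together in treated than in control cells for most genes with opposite changes, and not over all genes. Of the 141 genes with opposite changes, 92 (65.2%) had a smaller distance between the lines' mean levels in treated than in control cells, on a log2 scale with 0.5 CPM added. For the 1047 differing genes the share was 62.1%, and for all 14439 symbol-named genes 49.4%. For the 270 shared rises it was 32.2%. The median distance of the 141 went from 2.21 to 1.31 log2 units, that of the shared rises from 0.563 to 0.762 and that of all symbol-named genes from 0.913 to 0.956. The control levels enter both the distance and the difference that chose these genes, so the shares are a description.

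MYC fell in A375 and did not pass in LOX-IMVI BR. MYC, a transcription factor for ribosome and nucleotide synthesis, read 379 and 472 CPM in A375 controls and 27.9 and 18.1 CPM with 6-thio-dG. The LOX-IMVI BR level was 424 and 410.2 CPM without and 538 and 542 CPM with the compound. Log2 fold changes were -4.21 (SE 0.32, adjusted p = 8.68e-06) and 0.37 (SE 0.28, adjusted p = 0.425), and the difference was 4.58 (SE 0.42, adjusted p = 4.92e-05). Controls of both lines thus overlapped, and the treated libraries of the lines lay far apart. ODC1, the polyamine enzyme and a MYC target, read 338 and 644 CPM and 125 and 93.6 CPM in A375 and 191 and 182 CPM and 287 and 285 CPM in LOX-IMVI BR, with a difference of 2.79 (SE 0.45, adjusted p = 0.00226).

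A part of the genes for making ribosomes also fell in A375. Of 44 ribosome biogenesis genes, 14 fell in A375 (31.8%, beside 12.9% of symbol-named genes). None changed in LOX-IMVI BR, where limma voom called 14 higher. The medians were -0.96 in A375 and 0.04 in LOX-IMVI BR. The A375 count was 2 with 8 libraries and 8 to 22 with 1 library left out. For 41 of the 44 the effect was higher in LOX-IMVI BR, but only 2 (4.55%, beside 3.10% of symbol-named genes), POLR1B and NIP7, passed the test of the difference, and neither did with 8 libraries (adjusted p = 0.0993 and 0.134). Of 41 ribosomal protein genes 10 fell in A375 (24.4%, beside 12.9% of symbol-named genes) and none changed in LOX-IMVI BR. Their summed level was 47267 and 111198 CPM in the A375 controls and 39308 and 47732 CPM with 6-thio-dG, so the groups overlapped. Without the second A375 control their A375 median was 0.03 instead of -0.86. With edgeR none of the 41 differed between the lines, against 5 at an unadjusted p below 0.05 and 1 each with DESeq2 and limma voom.

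Immediate outputs of the ERK kinases, the growth pathway that BRAF mutations drive in melanoma, fell mainly in A375. Of 31 tested, 14 fell in A375 (45.2%, beside 12.9% of symbol-named genes) and none rose. LOX-IMVI BR had 2 rises (6.45%, beside 6.21%) and 5 falls (16.1%, beside 10.8%), with 3 falling in both lines. The effect was higher in LOX-IMVI BR for 9 (29%, beside 3.10% of symbol-named genes), MYC among them, and lower for 1 (4 and 0 with 8 libraries; the 9 ranged from 3 to 12 with 1 library left out). DUSP5, a phosphatase that switches off ERK, read 179 and 219.7 CPM and 129.6 and 74.6 CPM in A375 and 11.4 and 10.3 CPM and 42.2 and 43.9 CPM in LOX-IMVI BR, a difference of 2.95 (SE 0.44, adjusted p = 0.00134). HMGA2, a chromatin protein, read 171 and 107 CPM and 39.4 and 69.1 CPM against 149 and 144 CPM and 456 and 462 CPM, a difference of 3.01 (SE 0.46, adjusted p = 0.00156). LIF, a cytokine, and PHLDA1 fell in both lines, at -2.05 and -2.72 for LIF and -1.61 and -1.32 for PHLDA1.

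CD274, NT5E, ERBB3 and AXL, which encode proteins of the cell surface, fell in A375. CD274, the checkpoint ligand PD-L1, read 317 and 141 CPM in A375 controls and 4.51 and 7.66 CPM with 6-thio-dG, a log2 fold change of -5.23 (SE 0.46, adjusted p = 2.18e-05). In LOX-IMVI BR it read 27.6 and 24.9 CPM and 11.6 and 11.7 CPM, at -1.17 (SE 0.39, adjusted p = 0.0507). The difference was 4.06 (SE 0.57, adjusted p = 0.000916), and the level in LOX-IMVI BR moved in the same direction without passing. NT5E, the enzyme CD73 that makes extracellular adenosine, read 261 and 185 CPM and 19 and 46.5 CPM in A375 and 158 and 152 CPM and 219 and 219.6 CPM in LOX-IMVI BR. ERBB3, a receptor of the neuregulin growth factors, read 254 and 251 CPM and 117 and 79.9 CPM in A375 but was at 0.301 and 0.137 CPM and 1.4 and 1.35 CPM in LOX-IMVI BR, near the limit of counting. AXL, the receptor kinase of dedifferentiated melanoma, fell in both lines at -2.61 (SE 0.28, adjusted p = 9.14e-05) and -1.07 (SE 0.27, adjusted p = 0.0129), and its difference of 1.53 did not pass with 8 libraries (adjusted p = 0.0903).

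Of the 12 genes with the largest positive differences, 9 were below 2 CPM in all LOX-IMVI BR libraries. ANKRD1, a target of the YAP pathway, read 165 and 171 CPM in A375 controls and 12 and 29 CPM with 6-thio-dG, and 0.201 and 0.091 CPM and 1.52 and 1.66 CPM in LOX-IMVI BR. CDH4, a cadherin, read 17.8 and 24 CPM and 1.42 and 0.806 CPM in A375 and 1.21 and 0.819 CPM and 3.85 and 4.21 CPM in LOX-IMVI BR. KCNH1, a potassium channel, and DYSF, a membrane repair protein, fell in A375 at -4.87 (SE 0.34, adjusted p = 4.79e-06) and -4.56 (SE 0.38, adjusted p = 1.54e-05) and stayed below 1 CPM in every LOX-IMVI BR library. STK32A, ARL14EPL, GJB5, BMP4 and RPS6KL1 had no count at all in the LOX-IMVI BR controls, so the size of their fitted difference depends on the prior count and is not given, and ARL14EPL did not pass with 8 libraries (adjusted p = 0.143). FAM196B had more in LOX-IMVI BR than in A375, with 23.7 and 9.42 CPM and 0.752 and 0.873 CPM in A375 and 92.6 and 96.2 CPM and 149 and 156 CPM in LOX-IMVI BR.

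Heat shock chaperones that rose did so mainly in A375. These proteins refold damaged proteins in the cytosol and are induced by the factor HSF1. Rises made up 29.6% of the list in A375 (beside 7.81% of symbol-named genes) and 7.41% in LOX-IMVI BR (beside 6.21%). Falls made up 7.41% in A375 and 3.7% in LOX-IMVI BR, beside 12.9% and 10.8%. Of 27 tested, 8 rose and 2 fell in A375, 2 rose and 1 fell in LOX-IMVI BR, and 5 (18.5%, beside 4.16% of symbol-named genes) had a lower effect in LOX-IMVI BR with none higher (3 with 8 libraries; 3 to 9 with 1 library left out). HSPA1A, the inducible HSP70, read 7.25 and 12.2 CPM in A375 controls and 224 and 165 CPM with 6-thio-dG, and 62.3 and 56.7 CPM and 133 and 133 CPM in LOX-IMVI BR. The log2 fold changes were 4.33 (SE 0.37, adjusted p = 1.86e-05) and 1.16 (SE 0.32, adjusted p = 0.0218), with a difference of -3.17 (SE 0.46, adjusted p = 0.00124), and the LOX-IMVI BR rise had an adjusted p of 0.065 with 8 libraries. HSPA1B is a near-identical copy whose reads cannot be fully separated from it, and it gave a difference of -2.93. HSPA8, the constitutive HSC70, read 692 and 985 CPM in A375 controls and 4967 and 5202 CPM with 6-thio-dG, against 4803 and 4622 CPM and 5566 and 5614 CPM in LOX-IMVI BR. Only the A375 controls were low, and the difference was -2.35 (SE 0.40, adjusted p = 0.00376).

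The heat shock element GAANNTTC was in 45.8% of the 24 matched promoters of this list, on either strand, against 6.77% of all promoters and 4.96% of those of tested genes. The promoters of HSPA1A (chr6:31815293-31815542, plus strand) and HSPA8 (chr11:123062137-123062386, minus strand), both GRCh38.p14, are shown because these genes had the same element and different control levels. Each line is the 250 bases before the start, with matches in capitals. The element and the cell cycle motif can overlap in their letters, and no such overlap was removed.
HSPA1A: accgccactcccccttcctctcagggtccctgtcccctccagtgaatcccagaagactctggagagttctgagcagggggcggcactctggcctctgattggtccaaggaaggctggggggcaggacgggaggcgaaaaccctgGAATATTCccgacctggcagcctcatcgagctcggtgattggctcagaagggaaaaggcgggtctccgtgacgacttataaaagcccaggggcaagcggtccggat
HSPA8: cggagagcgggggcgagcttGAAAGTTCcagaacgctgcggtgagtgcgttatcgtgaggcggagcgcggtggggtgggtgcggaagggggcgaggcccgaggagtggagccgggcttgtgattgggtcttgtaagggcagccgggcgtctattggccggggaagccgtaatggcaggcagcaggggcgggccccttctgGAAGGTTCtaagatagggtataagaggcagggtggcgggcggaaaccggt

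Targets of NRF2, the sensor of oxidants and electrophiles, also rose mainly in A375. Of 32 tested, 15 rose (46.9%, beside 7.81% of symbol-named genes) and 2 fell (6.25%, beside 12.9%) in A375. LOX-IMVI BR had 4 rises (12.5%, beside 6.21%) and 1 fall (3.12%, beside 10.8%), and 3 rose in both lines. Only 4 (12.5%, beside 4.16% of symbol-named genes) had a lower effect in LOX-IMVI BR and none a higher one (2 with 8 libraries; 3 to 11 with 1 library left out). FTH1, the iron store ferritin, read 574 and 649 CPM in A375 controls and 3136 and 1772 CPM with 6-thio-dG, and 1913 and 1822 CPM and 1315 and 1271 CPM in LOX-IMVI BR, with a difference of -2.54 (SE 0.42, adjusted p = 0.0027). HMOX1, the haem-degrading enzyme, read 7.07 and 13.6 CPM and 91.8 and 79.4 CPM in A375 and 32.9 and 30.4 CPM and 43.2 and 41.3 CPM in LOX-IMVI BR. Its difference of -2.65 (SE 0.46, adjusted p = 0.00394) had an adjusted p of 0.0574 with 8 libraries. OSGIN1, an oxidative stress gene, rose in both lines at 1.95 (SE 0.33, adjusted p = 0.00153) and 3.50 (SE 0.35, adjusted p = 2.41e-05).

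**Figure D4:**
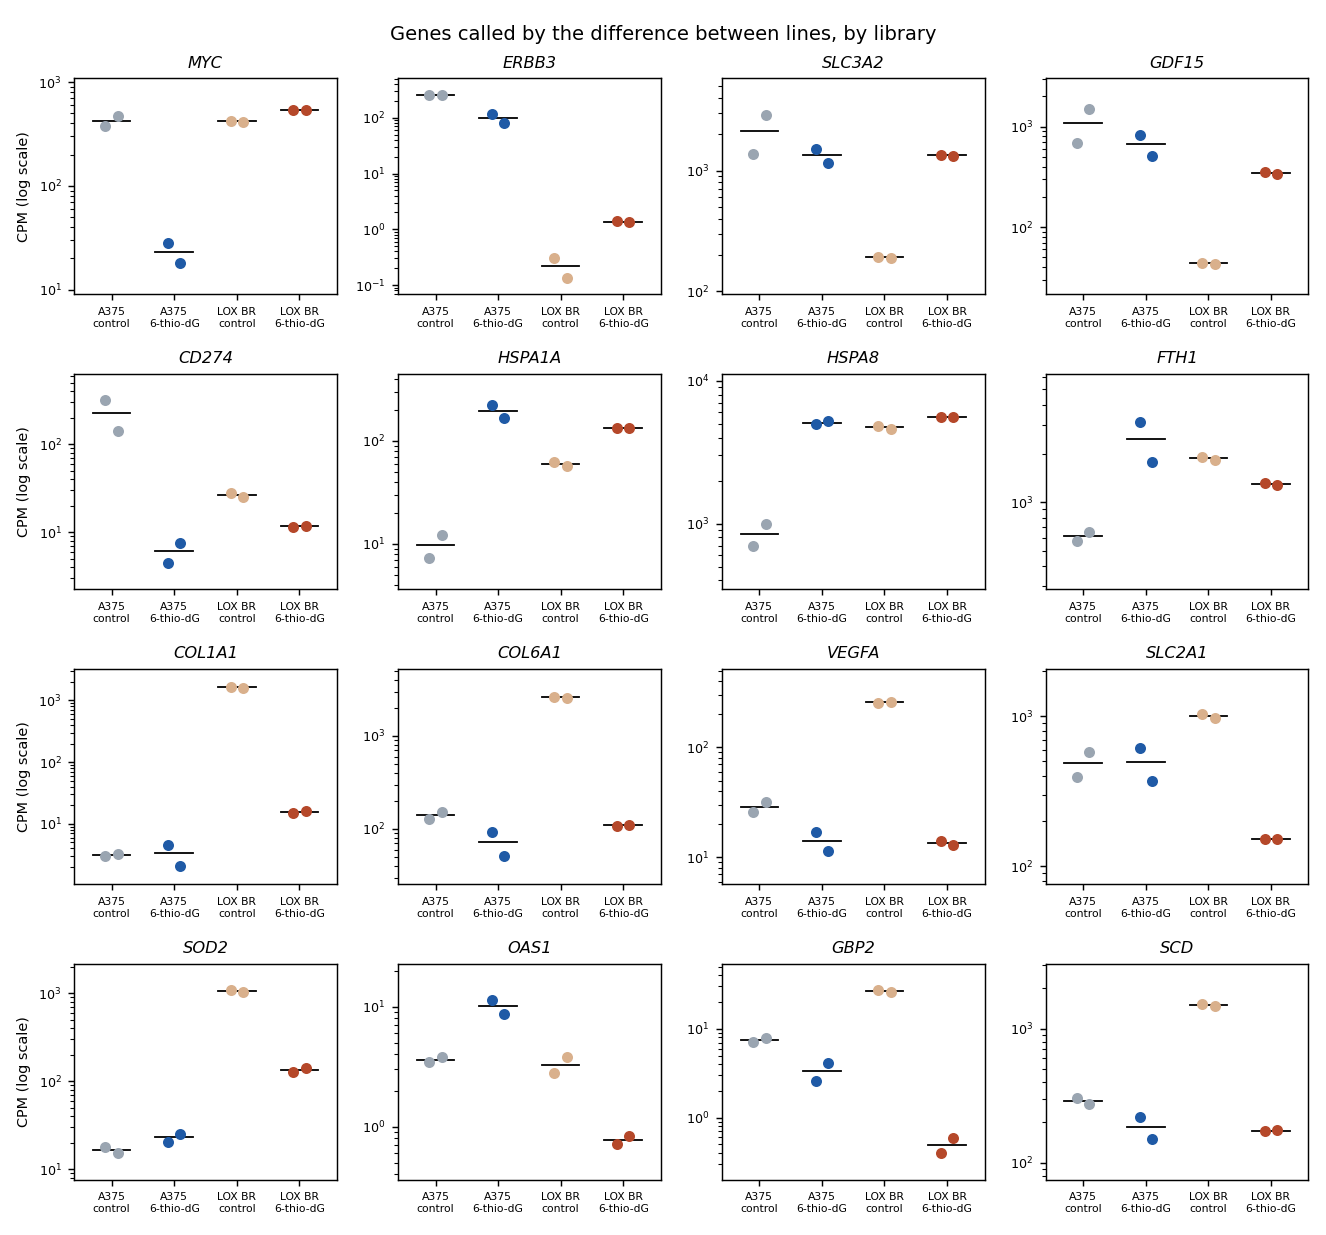
CPM (log scale) in each library for 16 genes whose 6-thio-dG effect differed between the lines, in the same colours; points are libraries and bars means of 2. MYC and CD274 fall mainly in A375, the chaperones HSPA1A and HSPA8 rise mainly in A375, and COL1A1, VEGFA, SLC2A1, SOD2 and SCD fall mainly in LOX-IMVI BR.

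Several collagen genes fell in LOX-IMVI BR and had a lower effect there than in A375. COL1A1, the main chain of collagen I, read 1640.4 and 1618 CPM in LOX-IMVI BR controls and 15 and 15.9 CPM with 6-thio-dG, a log2 fold change of -6.72 (SE 0.40, adjusted p = 1.16e-06). In A375 it was at 3.07 and 3.26 CPM and 4.59 and 2.08 CPM, with 0.07 (SE 0.35, adjusted p = 0.917), and the difference was -6.79 (SE 0.51, adjusted p = 9.71e-06). COL3A1 fell from 154 and 148 CPM to 1.48 and 2.55 CPM in LOX-IMVI BR and was below 2 CPM in all A375 libraries. COL6A1, a chain of collagen VI, had substantial levels in both lines: 129 and 152 CPM and 93.2 and 50.6 CPM in A375 and 2644 and 2539 CPM and 109 and 109 CPM in LOX-IMVI BR, a difference of -3.60 (SE 0.43, adjusted p = 0.000311). THBS2, a matrix thrombospondin, had -1.50 (SE 0.32, adjusted p = 0.00645) in A375 and -5.12 (SE 0.35, adjusted p = 1.74e-06) in LOX-IMVI BR.

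Of 50 tested genes of collagens, integrins and matrix, 23 fell in A375 (46%, beside 12.9% of symbol-named genes) and 3 rose (6%, beside 7.81%). In LOX-IMVI BR 28 fell (56%, beside 10.8%) and 1 rose (2%, beside 6.21%), with 13 falling in both lines. LOX-IMVI BR had the lower effect for 16 and higher for 9, which is 32% and 18%, beside 4.16% and 3.10% of symbol-named genes (10 and 2 with 8 libraries; 10 to 22 and 1 to 12 with 1 library left out). The fibroblast markers, which share several of these genes, fell in sum from 1934 to 1970.1 CPM to 47.8 to 51.7 CPM in LOX-IMVI BR, while A375 stayed at 18.9 to 21.2 CPM. Of the 11 markers 6 fell in LOX-IMVI BR, and most of the fall in the sum was COL1A1. Whether that fall reflects fewer cells of a kind or less RNA per cell cannot be told apart in bulk samples. LRRC15 and OLFML3, matrix-associated genes of mesenchymal cells, and the protease MMP9 also fell, at -5.92 (SE 0.50, adjusted p = 6.82e-06), -4.34 (SE 0.39, adjusted p = 1.16e-05) and -6.05 (SE 0.44, adjusted p = 2.6e-06) in LOX-IMVI BR. All 3 were below 2 CPM in every A375 library, where LRRC15 rose at 1.95 (SE 0.65, adjusted p = 0.0488) and OLFML3 at 2.79 (SE 0.57, adjusted p = 0.00526), the first lost with 8 libraries (adjusted p = 0.137), and the difference for MMP9 was lost with limma voom.

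Hypoxia and glycolysis genes fell mainly in LOX-IMVI BR. HIF, the oxygen-sensitive transcription factor, is known to raise both. Of 19 HIF targets, 14 fell in LOX-IMVI BR (73.7%, beside 10.8% of symbol-named genes) and none rose. A375 had 5 falls (26.3%, beside 12.9%) and 2 rises (10.5%, beside 7.81%). The medians were -1.83 in LOX-IMVI BR and -0.31 in A375. The effect was lower in LOX-IMVI BR for 7 (36.8%, beside 4.16% of symbol-named genes) and higher for none (5 with 8 libraries; 5 to 10 with 1 library left out). VEGFA, the angiogenic factor, read 25.9 and 31.6 CPM in A375 controls and 16.9 and 11.4 CPM with 6-thio-dG, and 254 and 260.3 CPM and 14.2 and 12.9 CPM in LOX-IMVI BR. The difference was -3.22 (SE 0.42, adjusted p = 0.00054), and treated libraries of both lines lay within 11.4 to 16.9 CPM. BHLHE40, a clock-linked repressor, had -0.04 (SE 0.28, adjusted p = 0.942) in A375 and fell at -2.96 (SE 0.30, adjusted p = 2.48e-05) in LOX-IMVI BR.

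Of 23 glycolysis genes, 18 fell in LOX-IMVI BR (78.3%, beside 10.8% of symbol-named genes) and 6 in A375 (26.1%, beside 12.9%). Both lines lowered 3, and none rose in either line. With upper-quartile factors the A375 median turned from -0.37 to 0.07 and that of the HIF targets from -0.31 to 0.02, so a fall of these lists in A375 depends on scaling. Without the second A375 control the glycolysis median was 0.04. LOX-IMVI BR had the lower effect for 7 (30.4%, beside 4.16%) and higher for none (2 with 8 libraries; 4 to 15 with 1 library left out). SLC2A1, the glucose transporter GLUT1, read 393 and 575 CPM and 613 and 371 CPM in A375, overlapping, and 1039.8 and 979 CPM and 151 and 151 CPM in LOX-IMVI BR, a difference of -2.76 (SE 0.43, adjusted p = 0.00184). PFKFB4, a regulator of glycolytic flux, had -2.77 (SE 0.48, adjusted p = 0.00402) as its difference. LDHA, lactate dehydrogenase, fell in LOX-IMVI BR from 4578 and 4257 CPM to 742 and 758 CPM, and its difference of -2.30 had an adjusted p of 0.0775 with 8 libraries. SCD, the fatty acid desaturase of lipid synthesis, read 304 and 274 CPM and 220.3 and 149 CPM in A375 and 1529.8 and 1470.0 CPM and 173 and 174 CPM in LOX-IMVI BR, a difference of -2.47 (SE 0.38, adjusted p = 0.00184).

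Genes of NF-κB, a transcription factor of inflammation, fell mainly in LOX-IMVI BR. Of 22 subunits and feedback genes, 12 fell in LOX-IMVI BR (54.5%, beside 10.8% of symbol-named genes). A375 had 4 falls (18.2%, beside 12.9%), 2 fell in both lines, and none rose in either line. The effect was lower in LOX-IMVI BR for 8 (36.4%, beside 4.16% of symbol-named genes) and higher for none (3 with 8 libraries; 3 to 10 with 1 library left out). SOD2, the mitochondrial superoxide dismutase and a marker of NF-κB activity, read 1086 and 1045 CPM in LOX-IMVI BR controls and 129 and 143 CPM with 6-thio-dG. In A375 it was at 17.9 and 15.3 CPM and 20.7 and 25.5 CPM, and the difference was -3.44 (SE 0.39, adjusted p = 0.000191). ZC3H12A and BCL3, feedback genes of the pathway, had differences of -2.85 (SE 0.44, adjusted p = 0.00184) and -3.11 (SE 0.52, adjusted p = 0.00321). TNFAIP3, the inhibitor A20, fell alike in both lines at -1.64 (SE 0.33, adjusted p = 0.0046) and -1.74 (SE 0.33, adjusted p = 0.00252), so not every member split.

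Most interferon-stimulated genes did not pass in either line. Of 42 tested, 5 rose (11.9%, beside 7.81% of symbol-named genes) and 2 fell in A375, while 12 fell (28.6%, beside 10.8%) and none rose in LOX-IMVI BR. LOX-IMVI BR had the lower effect for 10 (23.8%, beside 4.16%) and higher for none (4 with 8 libraries; 4 to 13 with 1 library left out). OAS1, an antiviral RNA sensor, read 3.44 and 3.8 CPM in A375 controls and 11.4 and 8.73 CPM with 6-thio-dG, and 2.81 and 3.78 CPM and 0.722 and 0.828 CPM in LOX-IMVI BR. Its difference was -3.56 (SE 0.47, adjusted p = 0.000575). OAS2 and IFI6, also induced by interferon, rose in A375 at 1.25 (SE 0.35, adjusted p = 0.0231) and 1.95 (SE 0.35, adjusted p = 0.00237) and fell in LOX-IMVI BR at -1.84 (SE 0.34, adjusted p = 0.00202) and -1.25 (SE 0.34, adjusted p = 0.0199). With 8 libraries the A375 rise of OAS2 and the LOX-IMVI BR fall of IFI6 did not pass (adjusted p = 0.11 and 0.0704). GBP2, a guanylate-binding protein, fell in both, at -1.14 (SE 0.33, adjusted p = 0.0289) in A375 and -5.71 (SE 0.40, adjusted p = 1.74e-06) in LOX-IMVI BR, the first lost with 8 libraries (adjusted p = 0.0778). Of 13 leukocyte markers 8 were tested, and their sum rose from 178 to 426 CPM to 767 to 1003 CPM in A375 and from 94.3 to 94.7 CPM to 120 to 137 CPM in LOX-IMVI BR. Nearly all of it was CD68, a lysosomal protein that many cells make, at 173 and 419.9 CPM and 984 and 732 CPM in A375. PTPRC, the defining leukocyte gene, was below 1 CPM in all 4 A375 libraries and in the LOX-IMVI BR controls, at 2.33 and 1.35 CPM in treated LOX-IMVI BR.

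Antigen presentation by MHC class I fell in LOX-IMVI BR for 11 of 17 genes (64.7%, beside 10.8% of symbol-named genes). In A375 it fell for 2 (11.8%, beside 12.9%). HLA-B itself fell in both, at -2.17 (SE 0.40, adjusted p = 0.00271) in A375 and -1.60 (SE 0.39, adjusted p = 0.011) in LOX-IMVI BR. The effect was lower in LOX-IMVI BR for 4 (23.5%, beside 4.16% of symbol-named genes), TAPBP and PSMB9 among them, but none of the 4 passed with 8 libraries.

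**Figure D5:**
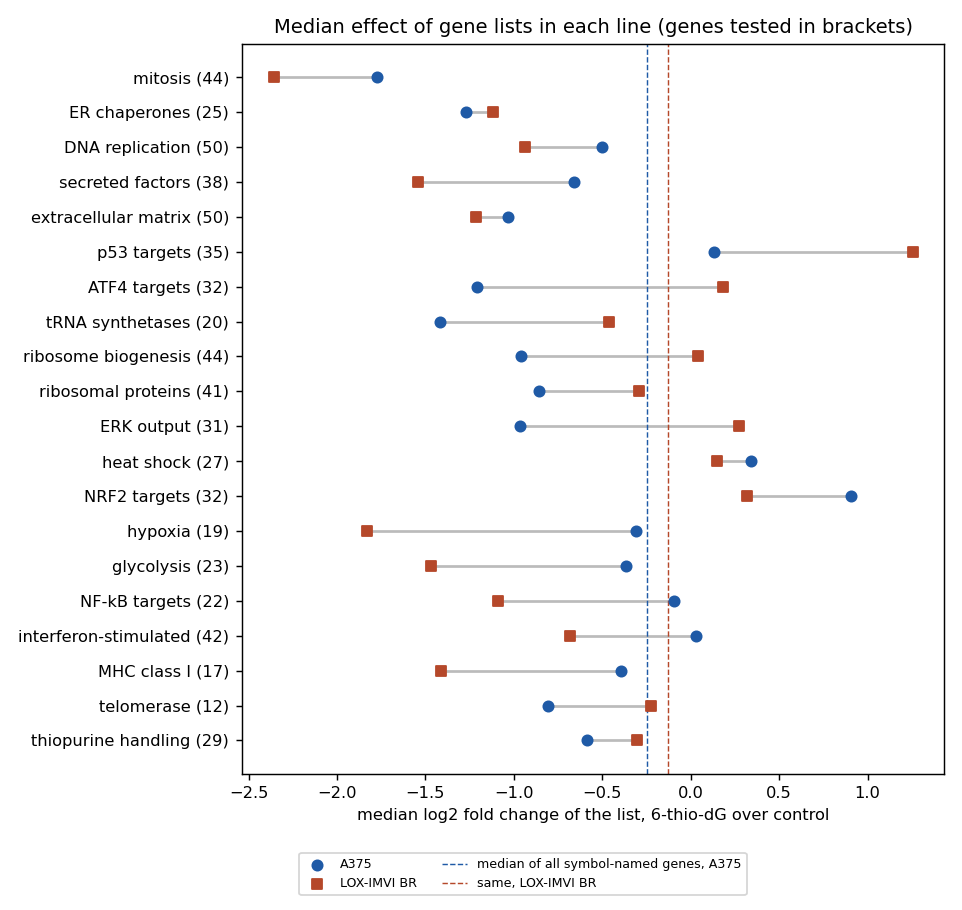
Median log2 fold change of 6-thio-dG over control for 20 gene lists in A375 (circles) and LOX-IMVI BR (squares), with the number of genes tested in brackets; dashed lines are the medians of all symbol-named genes, -0.25 and -0.13. Mitosis and endoplasmic reticulum chaperones are low in both lines. ATF4 targets and ERK output are low in A375 and above 0 in LOX-IMVI BR, and ribosome biogenesis is low in A375 and at 0.04 in LOX-IMVI BR. Hypoxia, glycolysis and MHC class I are lower in LOX-IMVI BR.

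Telomerase genes gave 1 difference. TERT, the catalytic subunit, read 9.46 and 3.89 CPM in A375 controls and 4.76 and 1.61 CPM with 6-thio-dG, which overlapped, and 9.29 and 12 CPM and 13 and 12.7 CPM in LOX-IMVI BR. Log2 fold changes were -1.12 (SE 0.46, adjusted p = 0.105) and 0.27 (SE 0.42, adjusted p = 0.733), and the difference of 1.39 (95% interval 0.05 to 2.73, adjusted p = 0.232) did not pass. Of 12 telomerase genes 4 fell (33.3%, beside 12.9% of symbol-named genes) and 1 rose (8.33%, beside 7.81%) in A375. None changed in LOX-IMVI BR, where limma voom called 6 lower. DKC1, which binds the telomerase RNA, was the only one called by the difference, at 1.46, and it did not pass with 8 libraries (adjusted p = 0.115). With edgeR none of 17 genes of shelterin and telomere maintenance differed between the lines, against 3 at an unadjusted p below 0.05 and 1 each with DESeq2 and limma voom. The telomerase RNA TERC did not pass the filter.

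Of 29 enzymes and transporters that handle thiopurines and purines, 8 fell in A375 (27.6%, beside 12.9% of symbol-named genes). In LOX-IMVI BR 2 fell (6.9%, beside 10.8%) and 1 rose (3.45%, beside 6.21%). A higher effect in LOX-IMVI BR was called for 1 and a lower effect for 1, 3.45% each, near the 3.10% and 4.16% of all symbol-named genes. HPRT1, which activates thiopurine bases, read 27.7 and 30.6 CPM and 19.2 and 30.7 CPM in A375 and 79.1 and 73.1 CPM and 43.6 and 43.4 CPM in LOX-IMVI BR, with a difference of -0.59 (95% interval -1.47 to 0.30, adjusted p = 0.48). TPMT, which inactivates thiopurines, fell in A375 at -1.37 (SE 0.34, adjusted p = 0.0136), with an adjusted p of 0.0631 with 8 libraries, and did not pass in LOX-IMVI BR at -0.61 (SE 0.33, adjusted p = 0.23). Its difference was 0.76 (95% interval -0.24 to 1.76, adjusted p = 0.405), so neither a difference nor its absence is shown. DCK, a deoxynucleoside kinase, and SAMHD1, a nucleotide phosphohydrolase, did not pass in either line.

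Genes that mark the melanoma state moved unequally. Among 36 genes of the dedifferentiated, AXL-high state, 17 fell in A375 (47.2%, beside 12.9% of symbol-named genes) and none rose. LOX-IMVI BR had 14 falls (38.9%, beside 10.8%) and 4 rises (11.1%, beside 6.21%), with 7 falling in both lines. The effect was higher in LOX-IMVI BR for 8 (22.2%, beside 3.10% of symbol-named genes) and lower for 1 (5 and 0 with 8 libraries; the 8 ranged from 3 to 12 with 1 library left out). SOX9, a transcription factor of neural crest and mesenchyme, read 38.1 and 16.8 CPM and 6.76 and 5.1 CPM in A375 and 22.5 and 23.2 CPM and 51 and 55.8 CPM in LOX-IMVI BR, a difference of 3.44 (SE 0.51, adjusted p = 0.00134). SNAI2, an inducer of the mesenchymal state, fell in both at -1.87 (SE 0.31, adjusted p = 0.00154) and -1.75 (SE 0.28, adjusted p = 0.000759). MITF fell in A375 at -2.22 (SE 0.50, adjusted p = 0.00889), with an adjusted p of 0.0545 with 8 libraries, and had 0.19 (SE 0.49, adjusted p = 0.857) in LOX-IMVI BR, and its difference of 2.41 (95% interval 0.93 to 3.89, adjusted p = 0.057) did not pass.

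Base composition moved with the results. Transcript GC content had a median of 49.1% over symbol-named genes, 57.1% over shared rises, 45.8% over shared falls, 47.8% over genes with a higher effect in LOX-IMVI BR and 54.8% over those with a lower one. In the eighth of genes with the lowest GC the median log2 fold change was -0.72 in A375 and -0.17 in LOX-IMVI BR, and in the eighth with the highest it was 0.15 and -0.0045. With an offset for GC content in each library, 1010 of the 1041 differing genes that had a GC value passed again and all 1041 kept their direction.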

How the data were processed

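The deposited table held read counts per gene for 12 libraries, made by the authors. The submitters' processing notes name STAR, Picard, GATK, featureCounts 1.5.1 and hg19/GRCh37 without saying which step used which. RNA was extracted with TRIzol and libraries were not strand-specific, per the labels' protocols, so overlapping antisense genes cannot be told apart, and HSPA1A and HSPA1B share reads. No column of another sample was present (0). Of 75253 genes, 4 repeated date-like names were dropped.

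Counts were scaled by TMM, filtered with filterByExpr and fitted with edgeR 4.0.16 (robust quasi-likelihood, R 4.3.3) over 6 group means in 12 libraries, with 6 residual degrees of freedom and a biological coefficient of variation of 25.8%. The difference was tested as 1 contrast, adjusted by Benjamini-Hochberg over 29114 genes. SE is the absolute log2 fold change divided by the square root of F, with a prior count of 0.125. Totals ran from 11813388 to 25822381 counts. The method was tested on simulated data with 1 dispersion for all groups. That test does not cover the unequal closeness of the library pairs seen here.

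Alternatives used limma 3.58.1, DESeq2 1.42.0, other factors, filters and libraries, a replicate block, and a GC offset. Replicate numbers are shared by the groups, but deviations of same-numbered libraries had r = -0.125 in A375 and -0.0148 in LOX-IMVI BR, so they were not treated as pairs. Promoters are RefSeq's (GRCh38.p14), and 11693 of 14439 symbol-named genes matched. Gene coordinates are not given, as the reference is of another build than the counts.

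Genes named singly were the largest differences (12 each way, 5 CPM or more in the highest group), and shared (10 each way) and opposite changes (8 each way) that rank first by the smaller of their 2 log2 fold changes among genes at 5 CPM or more in the higher group of each line, up to 4 differing and 2 shared genes of each list, and 17 genes followed whatever their result. Some genes that this rule names are not reported here. SOX10, CD68 and PTPRC were named after their values were seen. The genes and lists were chosen with earlier results of these data known.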

Additional observations from a re-analysis of the deposited data

Results flagged for a closer look

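The test of the difference between the lines marked 1612 genes. Of the genes that passed in both lines in opposite directions, 15 of those that rank first by the smaller of their 2 changes were singled out. They were chosen because their effects in A375 and LOX-IMVI BR point opposite ways. That their difference passed adds little to this choice, as all 141 symbol-named genes with opposite changes passed that test. The difference, LOX-IMVI BR minus A375, was 4.35 for FST, 4.27 for SERPINB7, 4.21 for SH2D5 and 4.60 for LURAP1L. It was 3.49 for DDR2, 3.59 for PPP1R15A, 3.65 for IL24 and 3.79 for GADD45A. In the other direction it was -6.83 for BMF, -5.63 for CD82 and -4.74 for COL17A1. It was -4.08 for PPFIA4, -4.00 for KCND1, -4.64 for ANGPTL4 and -4.69 for CEBPD. The difference passed for all 15 in every alternative run, with an adjusted p of 0.00231 to 0.0234 in the fit of 8 libraries, but the changes within a line did not. The A375 change was lost for 8 of the 15 with limma voom, for 9 with each line fitted alone and for CD82 and CEBPD with 8 libraries (adjusted p = 0.0507 and 0.0734). That of CEBPD was also lost without the first A375 control, and the LOX-IMVI BR changes of DDR2, PPP1R15A and KCND1 were lost without 1 of the LOX-IMVI BR libraries.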

How the results depend on the processing

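Counts of calls moved with the libraries, scaling, filter, GC offset and test used. No gene called with 12 libraries and described singly changed sign, but the medians of some lists did. Examples are given with mitosis, p53, ribosomal proteins, HIF targets and glycolysis. Among others, the A375 median also turned for interferon-stimulated genes (in 8 settings), NF-κB genes (4), lysosome genes (3) and MHC class I (2). The LOX-IMVI BR median turned for apoptosis (4 settings), telomerase (1) and ribosome biogenesis (1, from 0.04 to -0.03). Over all 29114 genes, 721 had a higher and 891 a lower effect in LOX-IMVI BR, 815 rose and 459 fell in both lines, 90 fell in A375 and rose in LOX-IMVI BR, and 113 did the reverse. In that order the 8 libraries alone gave 169, 193, 271, 172, 27 and 31, and limma voom with group weights gave 400, 438, 37, 131, 42 and 12. The GC offset gave 1455, 1469, 893 shared falls, 234 and 260. With the GC offset and the replicate block together the counts were 1323 higher, 487 shared rises, 818 shared falls, 202 and 225. Without the filter on low counts, 1681 were higher, 807 fell in both lines and 149 fell in A375 and rose in LOX-IMVI BR, and 67.1% of the differences were higher ones, against 44.7%. Upper-quartile factors gave 1488 shared rises and 214 shared falls, with 36.2% of differences higher. DESeq2's test gave 495 shared rises. With symbol-named genes only, 334 rose and 268 fell in both, and 59 fell in A375 and rose in LOX-IMVI BR. Fits of each line alone gave 272 shared rises, 220 shared falls and 33 that rose in A375 and fell in LOX-IMVI BR. Leaving out 1 library gave 170 to 4206 higher, 262 to 2602 lower, 251 to 1155 shared rises, 146 to 1308 shared falls, 22 to 319 and 32 to 416. Fewer genes or libraries were tested in some of these fits; otherwise the cause was not tested.

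With the replicate block 1108 differences passed (492 higher and 616 lower), and 1051 of the 1612 remained. With the numbers crossed in A375, an alternative chosen after seeing the data, 1098 passed, and 67 genes rose in A375 and fell in LOX-IMVI BR. Depth limits genes near 1 CPM, and 2 libraries a group limit every interval.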

Other observations

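Genes of apoptosis moved in both directions. Of 31 tested, 10 fell (32.3%, beside 12.9% of symbol-named genes) and 3 rose (9.68%, beside 7.81%) in A375. In LOX-IMVI BR 4 rose (12.9%, beside 6.21%) and 2 fell (6.45%, beside 10.8%), with 1 fall and no rise in both lines. The effect was higher in LOX-IMVI BR for 4 (12.9%, beside 3.10%) and lower for 1, BMF (3.23%, beside 4.16%). With 8 libraries BMF alone remained. Histone genes fell in LOX-IMVI BR for 6 of 23 tested (26.1%, beside 10.8%). In A375 2 fell (8.7%, beside 12.9%) and 4 rose (17.4%, beside 7.81%). Their 3 lower effects in LOX-IMVI BR (13%, beside 4.16%) did not pass with 8 libraries. Lysosome genes had 4 rises (12.1%, beside 7.81% of symbol-named genes) and 1 fall (3.03%, beside 12.9%) among 33 in A375. In LOX-IMVI BR they had 3 falls (9.09%, beside 10.8%), near the share of all genes. The effect was higher there for 3.03% and lower for 6.06%, beside 3.10% and 4.16%. The 3 members that differed were lost with 8 libraries.

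Among the 14675 non-coding loci, 565 differed between the lines, 62 of them with opposite changes. Both are smaller shares than the 1047 and 141 of the 14439 symbol-named genes. The non-coding loci had median log2 fold changes of 0.39 in A375 and 0.34 in LOX-IMVI BR, against -0.25 and -0.13 for symbol-named genes. All 54072 non-coding loci of the deposited table, tested or not, took 4.42% to 6.21% of counts in the control libraries and 6.78% to 7.41% with 6-thio-dG.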
